A study of Mus musculus with 9 samples.

Results

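The genes described here are the matrix metalloproteinases (Mmp), the ADAMTS proteases (Adamts) and the tissue inhibitors of metalloproteinases (Timp) of the mouse brain after intracerebral haemorrhage (ICH). They were chosen by name, as every entry whose symbol is Mmp, Adamts or Timp followed by its number (with a or b for some Mmp genes), which gave 46 of the 36346 genes measured: 23 Mmp, 4 Timp and 19 Adamts genes. Expression was measured by RNA sequencing in tissue labelled brain from wild-type C57BL/6 mice. The ICH+PTE mice had ICH and received pterostilbene (PTE), a plant stilbenoid related to resveratrol, the ICH mice had ICH alone, and the sham mice are labelled as controls; all were taken 72 hours (3 days) after the procedure. Each group held 3 mice and each mouse gave 1 library. A p-value here sets a difference of group means against the spread between mice within groups, estimated from all 3 groups together unless stated otherwise. No dose or route of PTE, ICH method, age or brain region is stated in the labels.

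Matrix metalloproteinases are zinc-dependent endopeptidases that cleave collagens, laminins, fibronectin and many cell-surface proteins. Most are secreted as inactive proenzymes, while the membrane-type members are held at the cell surface and are activated by furin-like convertases. TIMPs bind the active site and block it, and ADAMTS proteases are secreted relatives with thrombospondin repeats, several of which cleave the chondroitin sulphate proteoglycans of the brain's extracellular matrix. In brain haemorrhage the family is known above all for cleaving the basal lamina and tight junctions of the blood-brain barrier, and later for remodelling of the lesion. RNA levels do not show how much of an enzyme was activated.

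Levels are given in FPKM, the authors' deposited fragment density per kilobase of transcript after scaling for library size. Differences are on the log2(FPKM + 0.5) scale, with their standard error (SE), and understate the change of genes with low values. Each difference was tested with limma over the 15376 genes that reached 1 FPKM in 3 or more libraries, and a call means a p under 0.05 after Benjamini-Hochberg adjustment over these genes. The adjusted p-values below are all from limma. Of the 46 genes 30 were tested (17 Mmp, 4 Timp and 9 Adamts genes). The other 16 (6 Mmp and 10 Adamts genes) reached at most 1.12 FPKM in any library and are described at the end. Mmp10, Mmp13, Mmp27 and Mmp28 entered the test only through the ICH libraries and Adamts9 only through the ICH+PTE libraries. These 5 could hardly have been tested without differing, and leaving out any 1 library of the group concerned takes them out of the test. Without the ICH libraries as a whole, Mmp8, Mmp9, Mmp11 and Mmp12 would also have missed the filter. Outside ICH, Mmp8 reached 1 FPKM only in ICH+PTE libraries 2 and 3 (1.9 and 1.25 FPKM) and Mmp9 only in ICH+PTE library 1 (1.82 FPKM). Mmp12 did so only in ICH+PTE library 2 (2.35 FPKM) and Mmp11 only in sham library 1 (1.06 FPKM).

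Marker genes of several cell types differed between the groups. The summed FPKM of 10 markers of macrophages and phagocytic microglia was 167 to 558 in the ICH+PTE libraries, 7969 to 10752 in the ICH libraries and 110 to 195 in the sham libraries. The 6 neuronal markers summed to 367 to 528 in ICH+PTE, 188 to 236 in ICH and 455 to 480 in sham. The sum of 7 choroid plexus markers was highest in the library numbered 1 of every group, at 9.8 to 401 in ICH+PTE, 29.3 to 899 in ICH and 59.8 to 951 in sham. Mitochondrially encoded genes took 25.5 to 28.9% of the summed FPKM in ICH+PTE, 13.6 to 16.7% in ICH and 21.7 to 22.9% in sham. In such bulk tissue, fewer cells of a type and less RNA per cell cannot be told apart, and the part of cell composition in the differences below was not tested. Without the haemoglobin and mitochondrially encoded genes in the FPKM total, the median difference of all tested genes moved to -0.30 for ICH minus sham and to 0.22 for ICH+PTE minus ICH, against -0.02 for both as deposited. After rescaling to TPM it was -0.18 for ICH minus sham and -0.15 for ICH+PTE minus sham.

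Among the 30 tested genes of the family, 19 were called higher in ICH than in sham and 4 were called lower, with a median difference of 0.76 against -0.02 over all tested genes. Of all 15376 genes, 63.7% were called in this comparison (31.6% higher and 32.1% lower; 4862 and 4936 genes, or 3440 higher and 7099 lower without the haemoglobin and mitochondrial genes). In ICH+PTE against ICH, 8 were higher and 14 lower, with a median difference of -0.41 against -0.02 over all genes, of which 56.9% were called (26.4% higher and 30.5% lower; 4065 and 4683 genes, or 6161 higher and 3111 lower without the haemoglobin and mitochondrial genes). The 8 higher genes became 4 without ICH+PTE library 3 and 5 without ICH library 2 or ICH library 3. In ICH+PTE against sham, 9 were higher, 3 lower and 18 were not called, with a median of 0.07 against -0.03 over all genes, of which 23.4% were called (11.3% higher and 12.1% lower; 1736 and 1867 genes, or 1251 higher and 2989 lower in TPM). The number of all genes called in this last comparison, 3603, was 2224 without sham library 2 and 2089 without sham library 3. The libraries of the groups compared did not overlap in 24, 24 and 15 of the 30 genes in these 3 comparisons, against 73.5%, 64.7% and 38.6% of all tested genes. With calls this common among all genes, the counts of family members describe their pattern and do not set them apart. The 3 comparisons share their groups and are not independent.

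**Figure D1:**
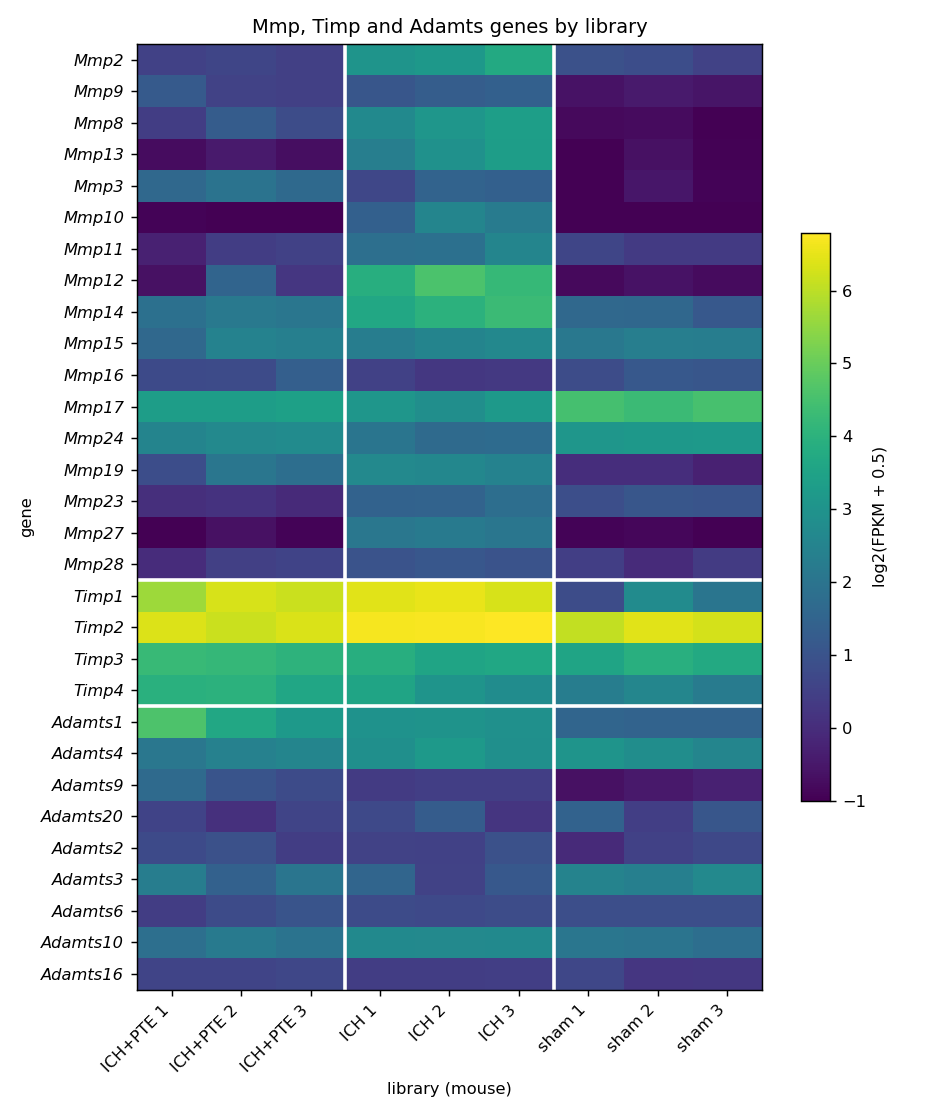
Expression of the 30 tested Mmp, Timp and Adamts genes (down the page, by role) in the 9 libraries (across), coloured by log2(FPKM + 0.5), with white lines between groups and gene families. Mmp2, Mmp8, Mmp10 to Mmp14 and Mmp27 are brightest in the 3 ICH libraries, Timp1 is bright in ICH+PTE and ICH and dark in sham, and Adamts1 is brightest in the ICH+PTE libraries.

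Of the 23 Mmp genes 10 lie side by side on chromosome 9, in a stretch of 427 kb (chr9:7272514-7699585, as the deposited table gives it) that holds 0 other genes of the table. Their order is Mmp13, Mmp12, Mmp1b, Mmp3, Mmp1a, Mmp10, Mmp8, Mmp27, Mmp20 and Mmp7, all on the plus strand except Mmp1b. This run holds collagenases, stromelysins, the metalloelastase Mmp12 and the matrilysin Mmp7. The promoters of several are known in man and mouse for an AP-1 site close to the start of transcription, through which Fos and Jun proteins act. In RefSeq windows of GRCm38.p6 from 250 bases before to 50 bases after each start, the AP-1 letters TGANTCA (sought on both strands) occur in 7.81% of all 32851 windows. Of the 46 genes 32 had a window, and 8 of these hold the letters. All 8 belong to the 10 genes of the run (Mmp13, Mmp12, Mmp1b, Mmp3, Mmp1a, Mmp10, Mmp20 and Mmp7), and 0 of the other 22 genes with a window hold them. Mmp12 and Mmp7 each have a pair of windows, of which 1 holds a match. The letters TATAAA, sought on the coding strand, occur in 8.32% of all windows.

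The 120 bases before the RefSeq start are shown for the 6 genes of the run that were tested. Capitals mark the AP-1 letters, and nearer to the start the TATAAA letters. For Mmp12 the start whose window holds the AP-1 letters is shown, which lies inside the gene as the deposited table gives it. The other Mmp12 window (chr9:7344147-7344446) spans the deposited start of the gene (7344381) and does not hold the AP-1 letters.
Mmp13 (chr9:7272394-7272513, plus strand): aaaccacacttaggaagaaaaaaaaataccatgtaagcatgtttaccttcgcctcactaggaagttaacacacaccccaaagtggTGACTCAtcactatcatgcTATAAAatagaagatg
Mmp12 (chr9:7347254-7347373, plus strand): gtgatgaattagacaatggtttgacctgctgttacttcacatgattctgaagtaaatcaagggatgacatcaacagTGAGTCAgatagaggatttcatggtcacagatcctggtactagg
Mmp3 (chr9:7445702-7445821, plus strand): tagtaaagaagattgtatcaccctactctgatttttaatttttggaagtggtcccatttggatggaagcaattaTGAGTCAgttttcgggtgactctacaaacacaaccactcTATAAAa
Mmp10 (chr9:7502222-7502341, plus strand): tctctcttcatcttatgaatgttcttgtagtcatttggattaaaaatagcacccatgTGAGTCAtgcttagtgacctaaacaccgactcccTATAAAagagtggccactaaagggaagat
Mmp8 (chr9:7558309-7558428, plus strand): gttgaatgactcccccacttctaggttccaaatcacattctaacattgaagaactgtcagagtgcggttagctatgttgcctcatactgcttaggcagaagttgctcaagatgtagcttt
Mmp27 (chr9:7571276-7571395, plus strand): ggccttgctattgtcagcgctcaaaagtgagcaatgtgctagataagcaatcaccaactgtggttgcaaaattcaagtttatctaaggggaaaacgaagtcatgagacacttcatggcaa

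Counting the base before the start as -1, the AP-1 letters begin at position -35 in Mmp13, -44 from the Mmp12 start shown, -46 in Mmp3 and -63 in Mmp10. The TATAAA letters follow them before the start in Mmp13, Mmp3 and Mmp10. In Mmp12 they follow only after the start shown, at position 5, and so lie outside the printed bases. Neither Mmp8 nor Mmp27 holds the AP-1 letters in its window, which says only that these letters are not there. Mmp13, Mmp12, Mmp10, Mmp8 and Mmp27 were all higher in ICH than in sham and lower in ICH+PTE than in ICH, with and without the letters. Mmp3, which also holds the AP-1 letters, was higher in ICH than in sham and was not lower in ICH+PTE. The part of these letters in the levels was not tested. The remaining 4 genes of the run were at or near 0: Mmp1a, Mmp1b and Mmp20 reached at most 0.0401 FPKM in any library. Of the flanking genes, Tmem123 on the Mmp7 side averaged 11 FPKM in ICH+PTE, 25.4 FPKM in ICH and 7.26 FPKM in sham, with differences of 1.74 for ICH minus sham (adjusted p = 1.37e-05) and -1.18 for ICH+PTE minus ICH (adjusted p = 0.00024). Dcun1d5 on the Mmp13 side was not called in any comparison, with 11.9 FPKM in ICH+PTE, 12.7 FPKM in ICH and 10.6 FPKM in sham. Dync2h1, beyond it, was called the other way, with 2.54 FPKM in ICH+PTE, 0.935 FPKM in ICH and 2.62 FPKM in sham, at -1.11 for ICH minus sham (adjusted p = 0.00118) and 1.04 for ICH+PTE minus ICH (adjusted p = 0.00227). These flanking genes were chosen after their values were seen.

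**Figure D2:**
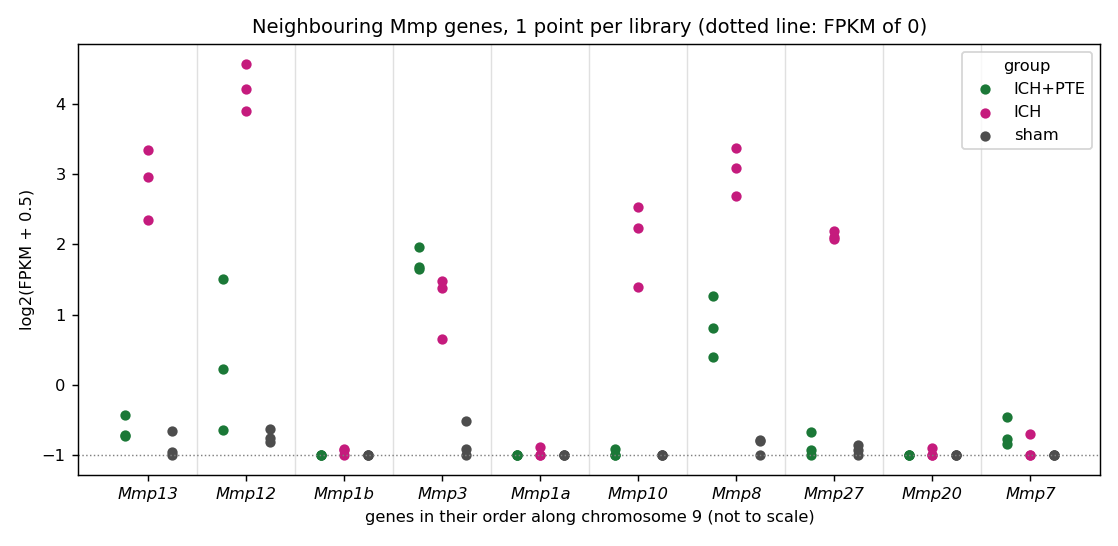
Expression, as log2(FPKM + 0.5), of the 10 neighbouring Mmp genes in their order along chromosome 9, with 1 point per library and groups set side by side. In 5 genes the ICH points stand above all others, at Mmp3 the ICH+PTE points stand above the ICH points, and Mmp1b, Mmp1a, Mmp20 and Mmp7 lie at or close to the dotted line that marks an FPKM of 0.

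The gelatinases Mmp2 and Mmp9, which cleave denatured collagen and the type IV collagen of basement membranes, differed in their pattern. Mmp2, on chromosome 8 (chr8:92827291-92853420), is made by fibroblasts and vascular cells and is activated at the cell surface by Mmp14 together with Timp2. It stood at 0.915, 1.04 and 0.89 FPKM in ICH+PTE, 7.72, 8.48 and 12.9 FPKM in ICH, and 1.42, 1.29 and 0.963 FPKM in sham. Every ICH library lay above all others, and the ICH+PTE and sham libraries overlapped. The ICH mean was 7.92-fold the sham mean, a difference of 2.54 ± 0.19 (SE; adjusted p = 3.51e-06), and ICH+PTE minus ICH was -2.78 ± 0.19 (adjusted p = 6.74e-06). The difference of ICH+PTE from sham, -0.24 ± 0.19, was not called (adjusted p = 0.375). The 8 fibroblast markers (collagens, Dcn, Lum and others) summed to 21.9 to 23.3 FPKM in ICH+PTE, 123 to 237 FPKM in ICH and 10.3 to 15.1 FPKM in sham. The sum was thus also highest in ICH, where Col1a1 was its largest term (45.6, 56.8 and 96 FPKM). Not all markers followed it: Pdgfra had 7.61, 6.8 and 8.32 FPKM in ICH+PTE and 5.9, 5.46 and 6.82 FPKM in ICH, and Dpt reached at most 0.272 FPKM in any library. The part of fibroblasts in the Mmp2 values was not tested.

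Mmp9 (chr2:164940780-164955850), the gelatinase that neutrophils carry in their granules and that is best known for opening the blood-brain barrier, was high in both haemorrhage groups. It had 1.82, 0.956 and 0.904 FPKM in ICH+PTE, 1.6, 1.98 and 2.09 FPKM in ICH, and 0.146, 0.246 and 0.178 FPKM in sham. All haemorrhage libraries lay above the sham libraries, and ICH+PTE library 1 lay among the ICH libraries while the other ICH+PTE libraries lay below them. Against sham, the difference was 1.29 ± 0.21 in ICH+PTE (adjusted p = 0.00277) and 1.79 ± 0.21 in ICH (adjusted p = 5.42e-05). The difference between ICH+PTE and ICH, -0.50 ± 0.21, was not called (adjusted p = 0.065). It was called without ICH+PTE library 1, at -0.74 (adjusted p = 0.0059). With libraries weighted by how closely they followed their group means in these same data, it was called at -0.68 (adjusted p = 0.00873). The 12 neutrophil markers summed to 18.8 to 33.9 FPKM in ICH+PTE, 32.8 to 45.4 FPKM in ICH and 5.34 to 6.02 FPKM in sham. The markers did not move together. Csf3r, a receptor also found on other myeloid cells, had 3.09, 5.71 and 5 FPKM in ICH+PTE, 17.7, 22.2 and 21.9 FPKM in ICH, and 4.9, 5.22 and 3.86 FPKM in sham, and is the largest single term of the ICH sums. The alarmin S100a8 had 8.47, 5.82 and 4.31 FPKM in ICH+PTE, 5.58, 6.97 and 6.1 FPKM in ICH and at most 0.642 FPKM in sham, so that the haemorrhage groups overlapped. Retnlg had 2.85, 1.11 and 0.685 FPKM in ICH+PTE, 0.89, 0.334 and 0.261 FPKM in ICH and at most 0.0923 FPKM in sham, and Ly6g was listed at 0 in all ICH and sham libraries and at 0.0542 to 0.0614 FPKM in ICH+PTE. The part of neutrophils in the Mmp9 values was not tested.

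The collagenases Mmp8 and Mmp13 cut the triple helix of fibrillar collagens. Mmp8, stored in neutrophil granules and also made by macrophages, had 0.821, 1.9 and 1.25 FPKM in ICH+PTE, 5.97, 7.96 and 9.86 FPKM in ICH, and 0.077, 0.0835 and 0 FPKM in sham. The 3 groups did not overlap, with ICH+PTE in between. The ICH libraries exceeded sham by 3.91 ± 0.24 (adjusted p = 1.22e-06), ICH+PTE minus ICH was -2.22 ± 0.24 (adjusted p = 5.81e-05), and ICH+PTE remained above sham by 1.68 ± 0.24 (adjusted p = 0.00135). Mmp13, the main interstitial collagenase of the mouse, had 0.102, 0.246 and 0.108 FPKM in ICH+PTE, 4.58, 7.25 and 9.69 FPKM in ICH, and 0, 0.133 and 0.0148 FPKM in sham. Only the ICH libraries were above 0.246 FPKM. They exceeded sham by 3.76 ± 0.25 (adjusted p = 1.97e-06), ICH+PTE minus ICH was -3.51 ± 0.25 (adjusted p = 9.08e-06) and ICH+PTE minus sham was not called (0.25 ± 0.25, adjusted p = 0.5). Mmp1a and Mmp1b, the mouse counterparts of the human interstitial collagenase gene, were at or near 0, as given above.

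The stromelysins cleave proteoglycans, laminin and fibronectin, and Mmp3 and Mmp10 also activate other proenzymes. Mmp3 had 2.63, 3.41 and 2.69 FPKM in ICH+PTE, 1.08, 2.29 and 2.1 FPKM in ICH, and 0, 0.198 and 0.0297 FPKM in sham. Each ICH+PTE library was above each ICH library, and each of these was above sham. Against sham, Mmp3 differed by 2.57 ± 0.24 in ICH+PTE (adjusted p = 0.000145) and by 1.98 ± 0.24 in ICH (adjusted p = 5.46e-05). Between ICH+PTE and ICH the difference of 0.59 ± 0.24 missed the threshold (adjusted p = 0.0545). It was called at 0.74 without ICH library 2 (adjusted p = 0.0457) and at 0.81 without the haemoglobin and mitochondrial genes (adjusted p = 0.0122), and narrowly with a pseudocount of 1, in TPM and with median-of-ratios scaling (adjusted p = 0.0373, 0.0491 and 0.0473).

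Mmp10, a stromelysin that Mmp1a separates from Mmp3 on chromosome 9, had another pattern. It was listed at 0.0314, 0 and 0 FPKM in ICH+PTE, at 2.13, 5.3 and 4.2 FPKM in ICH, and at 0 in all 3 sham libraries. It was thus detected well in ICH only, and no fold is given against groups at 0; ICH differed from sham (adjusted p = 9.55e-06) and ICH+PTE from ICH (adjusted p = 2.4e-05), while ICH+PTE minus sham was not called (adjusted p = 0.948). Mmp11, which unlike most secreted members is activated by furin inside the cell, had 0.322, 0.841 and 0.909 FPKM in ICH+PTE, 3.11, 3.19 and 5.39 FPKM in ICH, and 1.06, 0.743 and 0.746 FPKM in sham. The ICH libraries stood apart and the others overlapped. For Mmp11, ICH minus sham was 1.67 ± 0.25 (adjusted p = 0.000256) and ICH+PTE minus ICH was -1.89 ± 0.25 (adjusted p = 0.00021). Mmp11 overlaps Chchd10 on the opposite strand over 3367 bases, and Chchd10 averaged 43.2 FPKM in ICH+PTE, 42.4 FPKM in ICH and 53 FPKM in sham; whether the authors' counting used the strand is not stated.

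Mmp12, the metalloelastase of macrophages, had the largest difference of the family in ICH. It had 0.141, 2.35 and 0.669 FPKM in ICH+PTE, 14.4, 23.3 and 18.1 FPKM in ICH, and 0.0721, 0.146 and 0.0912 FPKM in sham. The ICH+PTE libraries spread widely, from the sham range in library 1 to 2.35 FPKM in library 2, and all lay below the lowest ICH library. For Mmp12, ICH minus sham was 4.96 ± 0.43 (adjusted p = 8.51e-06) and ICH+PTE minus ICH was -3.87 ± 0.43 (adjusted p = 7.16e-05). The difference from sham in ICH+PTE, 1.10 ± 0.43, was not called (adjusted p = 0.091), but it was at 1.60 without ICH+PTE library 1 (adjusted p = 0.0106) and at 1.23 with library weights (adjusted p = 0.0247). The macrophage marker sum followed the same order of ICH+PTE libraries, with 167 FPKM in library 1, 558 FPKM in library 2 and 386 FPKM in library 3, and its part in the Mmp12 values was not tested. Where Mmp12 overlaps Mmp1b on the other strand, over 1261 bases, Mmp1b was at or near 0.

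**Figure D3:**
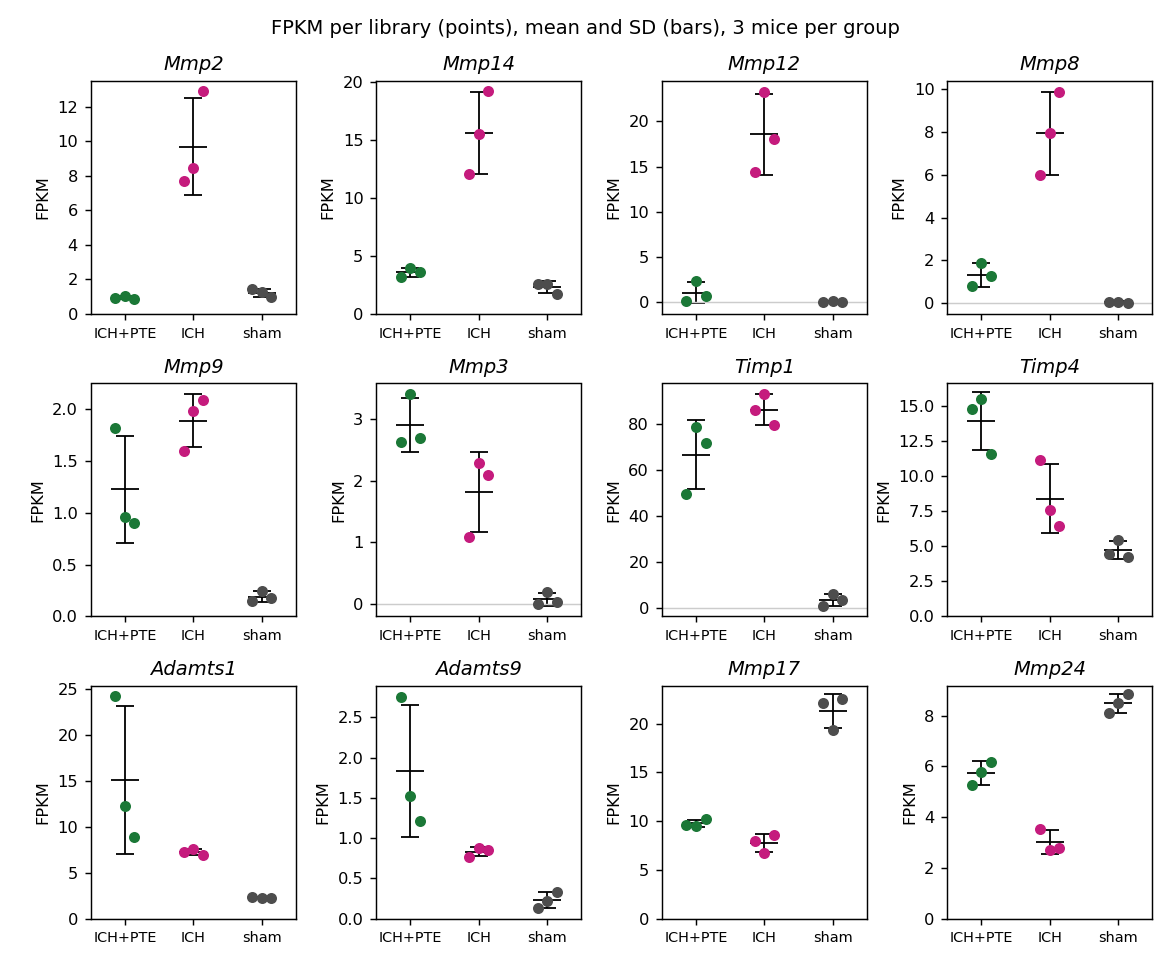
FPKM of 12 Mmp, Timp and Adamts genes in each library, with 1 point per mouse and bars for the mean and SD of the 3 mice per group. Mmp2, Mmp14, Mmp12 and Mmp8 are highest in ICH, with Mmp8 also above sham in every ICH+PTE library, Mmp9, Mmp3 and Timp1 lie above sham in both haemorrhage groups, Timp4, Adamts1 and Adamts9 are highest in ICH+PTE, and Mmp17 and Mmp24 are highest in sham.

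Of the 5 tested membrane-type enzymes, Mmp14 rose in ICH against sham, Mmp16, Mmp17 and Mmp24 fell, and Mmp15 was not called. Mmp14 (chr14:54431612-54441265), a collagenase of the cell surface that activates the Mmp2 proenzyme, had 3.17, 3.96 and 3.65 FPKM in ICH+PTE, 12.1, 15.5 and 19.2 FPKM in ICH, and 2.6, 2.56 and 1.69 FPKM in sham. The 3 groups did not overlap. ICH minus sham was 2.53 ± 0.19 (adjusted p = 3.41e-06), close to that of its substrate Mmp2, and ICH+PTE minus ICH was -1.96 ± 0.19 (adjusted p = 3.19e-05). Against sham, the ICH+PTE difference of 0.57 ± 0.19 narrowly missed the threshold (adjusted p = 0.0508) and passed it under several alternatives, among them those without ICH library 1 (adjusted p = 0.0373) or ICH library 3 (adjusted p = 0.0447).

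Mmp17 and Mmp24 were highest in sham. Mmp17, which is held in the membrane by a lipid anchor, had 9.6, 9.53 and 10.2 FPKM in ICH+PTE, 8.02, 6.77 and 8.61 FPKM in ICH, and 22.1, 19.3 and 22.5 FPKM in sham. No groups overlapped, but the gap between ICH+PTE and ICH was small beside that to sham. For Mmp17, ICH+PTE minus sham was -1.09 ± 0.11 (adjusted p = 0.000223) and ICH minus sham was -1.40 ± 0.11 (adjusted p = 4.49e-06). The difference between ICH+PTE and ICH was 0.31 ± 0.11 (adjusted p = 0.0314). This last call was lost without ICH library 1 (adjusted p = 0.0526), ICH library 2 (0.22, adjusted p = 0.131) or ICH+PTE library 3 (adjusted p = 0.086), with library weights (adjusted p = 0.0716) and when only these groups were fitted (adjusted p = 0.051), while the difference was 0.57 without the haemoglobin and mitochondrial genes.

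Mmp24, a membrane-type member expressed mainly by neurons, had 5.25, 5.79 and 6.19 FPKM in ICH+PTE, 3.55, 2.71 and 2.79 FPKM in ICH, and 8.11, 8.48 and 8.85 FPKM in sham. The groups did not overlap, with ICH+PTE in the middle. All 3 differences were called, at 0.83 ± 0.12 for ICH+PTE minus ICH (adjusted p = 0.000263), -0.53 ± 0.12 for ICH+PTE minus sham (adjusted p = 0.0111) and -1.36 ± 0.12 for ICH minus sham (adjusted p = 8.44e-06). Mmp16, another membrane-type member of the brain, averaged 1.49 FPKM in ICH+PTE, 0.778 FPKM in ICH and 1.52 FPKM in sham. It was called lower in ICH than in sham (-0.66 ± 0.20, adjusted p = 0.0137) and higher in ICH+PTE than in ICH (0.61 ± 0.20, adjusted p = 0.0216). The first call was lost without sham library 2 (adjusted p = 0.053) or ICH library 2 (adjusted p = 0.0512), and the second without ICH library 2, ICH library 3 or ICH+PTE library 3 (adjusted p = 0.0745, 0.0658 and 0.0758) and with no filter on low values (adjusted p = 0.0594). The 6 neuronal markers given above were also lowest in ICH, and their part in the Mmp16, Mmp17 and Mmp24 values was not tested. Mmp24 overlaps BC029722 on the opposite strand over 637 bases. Mmp15, a membrane-type member with 4.08 FPKM in ICH+PTE, 5.14 FPKM in ICH and 4.25 FPKM in sham, was called in no comparison.

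Of the remaining secreted or atypical members, Mmp27 was high in ICH alone. It had 0, 0.131 and 0.0274 FPKM in ICH+PTE, 3.79, 4.05 and 3.7 FPKM in ICH, and 0.0274, 0.0537 and 0 FPKM in sham. The ICH libraries lay close together and far above the rest, with ICH minus sham at 3.04 ± 0.17 (adjusted p = 9.48e-07) and ICH+PTE minus ICH at -2.98 ± 0.17 (adjusted p = 4.83e-06). Its start lies 2.91 kb beyond the end of Mmp8 on the same strand. Mmp19, a secreted enzyme of basement membranes, had 1.28, 3.62 and 2.99 FPKM in ICH+PTE, 5.88, 5.61 and 4.94 FPKM in ICH, and 0.522, 0.508 and 0.322 FPKM in sham. The groups did not overlap, and ICH+PTE stood in between. Against sham, Mmp19 differed by 1.64 ± 0.27 in ICH+PTE (adjusted p = 0.00267) and by 2.66 ± 0.27 in ICH (adjusted p = 2.1e-05). ICH+PTE minus ICH was -1.02 ± 0.27 (adjusted p = 0.00869), and -0.65 without ICH+PTE library 1. The gene overlaps Tmem198b on the opposite strand over 789 bases. Tmem198b averaged 5.3 FPKM in ICH+PTE, 7.54 FPKM in ICH and 3.58 FPKM in sham, the same order of groups as Mmp19. Its part in the Mmp19 values was not tested.

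Mmp23, which has a cysteine array and an immunoglobulin-like domain in place of the usual haemopexin domain, was the only Mmp gene that was higher in ICH than in sham and lower in ICH+PTE than in sham. It had 0.532, 0.598 and 0.451 FPKM in ICH+PTE, 2.22, 2.29 and 3.03 FPKM in ICH, and 1.34, 1.62 and 1.54 FPKM in sham. The groups did not overlap. For Mmp23, ICH+PTE minus ICH was -1.55 ± 0.15 (adjusted p = 3.96e-05) and ICH+PTE minus sham was -0.96 ± 0.15 (adjusted p = 0.00237). ICH minus sham was 0.59 ± 0.15 (adjusted p = 0.00692), a call lost without the haemoglobin and mitochondrial genes (0.34, adjusted p = 0.0759). Mmp28, known as epilysin, averaged 0.788 FPKM in ICH+PTE, 1.53 FPKM in ICH and 0.704 FPKM in sham. It was higher in ICH than in sham by 0.77 ± 0.20 (adjusted p = 0.00667) and lower in ICH+PTE than in ICH by a difference of -0.68 ± 0.20 (adjusted p = 0.015), the second call being lost without the haemoglobin and mitochondrial genes (adjusted p = 0.0613). It overlaps 1700020L24Rik on the opposite strand over 466 bases, a gene with 0.564 FPKM in ICH+PTE, 1.98 FPKM in ICH and 0.884 FPKM in sham.

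Summed over the 11 secreted Mmp genes with the gelatinase, collagenase, stromelysin, matrilysin and metalloelastase roles, FPKM came to 7.01, 10.8 and 7.48 in ICH+PTE, 40.7, 59.8 and 64.5 in ICH, and 2.78, 2.84 and 2.02 in sham. The 6 membrane-type genes summed to 21.8, 25.6 and 26.9 FPKM in ICH+PTE, 29.3, 31.5 and 37.4 FPKM in ICH, and 38, 36.7 and 39.1 FPKM in sham. Thus in sham most of the summed Mmp RNA came from membrane-type genes, and in ICH the secreted genes had the larger sum. ICH+PTE had the lowest membrane-type sum and a secreted sum between the other groups, with no overlap in either sum except between ICH and sham for the membrane-type genes.

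The Timp genes had higher levels than the Mmp genes in sum. The 4 Timp genes summed to 165, 183 and 181 FPKM in ICH+PTE, 214, 216 and 208 FPKM in ICH, and 84.3, 112 and 97.4 FPKM in sham, while all 23 Mmp genes summed to 31.3 to 41.7 FPKM in ICH+PTE, 83.4 to 115 FPKM in ICH and 42.3 to 44 FPKM in sham. These sums compare RNA per length and not protein. Timp1 (chrX:20870166-20874735), the inhibitor that injury and cytokines induce, had 49.6, 78.4 and 71.7 FPKM in ICH+PTE, 85.9, 92.8 and 79.6 FPKM in ICH, and 1.24, 6.32 and 3.57 FPKM in sham. Both haemorrhage groups lay far above sham, and each ICH+PTE library lay below each ICH library, library 2 narrowly and library 1 clearly. For Timp1, ICH+PTE minus sham was 4.18 ± 0.39 (adjusted p = 0.000172) and ICH minus sham was 4.57 ± 0.39 (adjusted p = 8.3e-06). The difference between ICH+PTE and ICH, -0.39 ± 0.39, was not called (adjusted p = 0.415), which does not show that the groups were equal. Timp1 made up 30, 42.8 and 39.7% of the Timp sum in ICH+PTE, 40.1, 43 and 38.2% in ICH, and 1.47, 5.64 and 3.67% in sham.

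Timp4, an inhibitor expressed in brain and heart, had 14.8, 15.5 and 11.6 FPKM in ICH+PTE, 11.2, 7.63 and 6.43 FPKM in ICH, and 4.47, 5.44 and 4.26 FPKM in sham. The 3 groups did not overlap, and ICH+PTE was the highest. For Timp4, ICH+PTE minus ICH was 0.72 ± 0.19 (adjusted p = 0.00904), ICH+PTE minus sham was 1.46 ± 0.19 (adjusted p = 0.000919) and ICH minus sham was 0.74 ± 0.19 (adjusted p = 0.00641), or 0.46 without the haemoglobin and mitochondrial genes and still called. Timp3, which is bound to the matrix and also inhibits ADAMTS proteases, averaged 17.5 FPKM in ICH+PTE, 12.5 FPKM in ICH and 12.9 FPKM in sham. It was higher in ICH+PTE than in ICH by 0.48 ± 0.13 (adjusted p = 0.0085), and by 0.74 without the haemoglobin and mitochondrial genes. ICH+PTE minus sham was called at 0.43 ± 0.13 (adjusted p = 0.0322) but lost under several alternatives, among them those without sham library 1 or 3 (adjusted p = 0.0965 and 0.0872), without ICH library 3 (adjusted p = 0.0507) and without ICH+PTE library 1 or 2 (adjusted p = 0.072 and 0.077). ICH minus sham was -0.04 ± 0.13 (adjusted p = 0.775), and -0.34 without the haemoglobin and mitochondrial genes (adjusted p = 0.0444).

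Timp2, the most abundant inhibitor and the one that takes part in Mmp2 activation, averaged 78.3 FPKM in ICH+PTE, 106 FPKM in ICH and 76.6 FPKM in sham. For Timp2, ICH minus sham was 0.47 ± 0.11 (adjusted p = 0.00343) and ICH+PTE minus ICH was -0.43 ± 0.11 (adjusted p = 0.00646). Without the haemoglobin and mitochondrial genes neither was called (adjusted p = 0.241 and 0.275), and in TPM the first was not called (adjusted p = 0.0644). Timp1, Timp3 and Timp4 lie inside the synapsin genes Syn1, Syn3 and Syn2 on the opposite strand. Syn1 averaged 94.9 FPKM in ICH+PTE, 27.9 FPKM in ICH and 74.2 FPKM in sham, so that its level was lowest where Timp1 was highest. Syn2 averaged 32.6 FPKM in ICH+PTE, 13.8 FPKM in ICH and 42.2 FPKM in sham. It was highest in sham, where Timp4 was lowest, but like Timp4 it was higher in ICH+PTE than in ICH. Syn3 averaged 0.537 FPKM in ICH+PTE, 0.201 FPKM in ICH and 0.687 FPKM in sham, and like Timp3 it was higher in ICH+PTE than in ICH. The part of reads from the synapsin genes in the Timp values was not tested.

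Of the ADAMTS proteoglycanases, Adamts1 and Adamts9 were higher in ICH than in sham and higher again in ICH+PTE. Adamts1 (chr16:85793827-85803113), a versican-cleaving protease induced by inflammation and hypoxia, had 24.2, 12.3 and 8.87 FPKM in ICH+PTE, 7.27, 7.57 and 6.96 FPKM in ICH, and 2.41, 2.3 and 2.26 FPKM in sham. The groups did not overlap, and ICH+PTE library 1 was by far the highest. For Adamts1, ICH+PTE minus sham was 2.35 ± 0.27 (adjusted p = 0.000501) and ICH minus sham was 1.46 ± 0.27 (adjusted p = 0.000994). ICH+PTE minus ICH was 0.89 ± 0.27 (adjusted p = 0.0188). It was 0.50 without ICH+PTE library 1 and still called, and was not called without ICH library 3 (adjusted p = 0.0533) or with no filter on low values (adjusted p = 0.0661).

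Adamts9, which cleaves versican and aggrecan, had 2.76, 1.52 and 1.22 FPKM in ICH+PTE, 0.772, 0.875 and 0.853 FPKM in ICH, and 0.132, 0.226 and 0.329 FPKM in sham. Again no groups overlapped and ICH+PTE library 1 was the highest. For Adamts9, ICH+PTE minus sham was 1.63 ± 0.24 (adjusted p = 0.00156), ICH minus sham was 0.88 ± 0.24 (adjusted p = 0.00831) and ICH+PTE minus ICH was 0.75 ± 0.24 (adjusted p = 0.0204). The last call was lost without any 1 of the ICH libraries (adjusted p = 0.0612, 0.0539 and 0.0559 without library 1, 2 and 3), and without any 1 of the ICH+PTE libraries Adamts9 no longer entered the test. The 8 endothelial markers summed to 100, 144 and 100 FPKM in ICH+PTE, 153, 156 and 157 FPKM in ICH, and 67.6, 56.3 and 53.9 FPKM in sham. Single markers differed in their order over the ICH+PTE libraries: Cdh5 had 8.52, 6.85 and 5.46 FPKM and Kdr 0.951, 2.44 and 1.73 FPKM. They also differed in direction, with 1 of the 8 called higher and 5 called lower in ICH+PTE than in ICH. Ly6c1 had 35.9, 59.1 and 35.8 FPKM in ICH+PTE and 33.9, 27.8 and 27.1 FPKM in ICH. Cldn5, the largest term of the ICH sums, had 31.3, 37.4 and 27.5 FPKM in ICH+PTE and 73.3, 75.8 and 75.3 FPKM in ICH. The choroid plexus marker sum was highest in library 1 of every group, at 401 FPKM in ICH+PTE (of which Ttr had 389 FPKM), 899 FPKM in ICH and 951 FPKM in sham. Adamts9 was highest in library 1 in ICH+PTE only, and lowest there in ICH and sham. Adamts1 in library 1 lay between the other ICH libraries and was narrowly the highest in sham. The part of either cell type in the Adamts1 and Adamts9 values was not tested.

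Adamts4, an aggrecanase that also cleaves brevican, averaged 4.65 FPKM in ICH+PTE, 7.46 FPKM in ICH and 6.51 FPKM in sham. It was lower in ICH+PTE than in ICH by a difference of -0.63 ± 0.16 (adjusted p = 0.00825), a call lost without the haemoglobin and mitochondrial genes (adjusted p = 0.062). The difference between ICH+PTE and sham, -0.44 ± 0.16, was not called (adjusted p = 0.0776) but was in TPM (-0.57, adjusted p = 0.0289). Adamts20, with 0.851 FPKM in ICH+PTE, 1.24 FPKM in ICH and 1.57 FPKM in sham, was called in no comparison.

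Adamts3, a procollagen protease that also processes the lymphatic growth factor VEGF-C and cleaves reelin, fell in ICH. It had 4.4, 2.2 and 3.54 FPKM in ICH+PTE, 2.39, 0.963 and 1.69 FPKM in ICH, and 5.05, 4.6 and 5.79 FPKM in sham. Sham stood above the other groups, and ICH+PTE and ICH overlapped in 1 library each. The difference between ICH and sham was -1.42 ± 0.26 (adjusted p = 0.000952). ICH+PTE minus ICH was 0.84 ± 0.26 (adjusted p = 0.0201), a call that was lost without ICH library 2, ICH+PTE library 1 or ICH+PTE library 3 (adjusted p = 0.0771, 0.0709 and 0.0593) and with no filter on low values (adjusted p = 0.0678). Adamts2, the other tested procollagen protease, averaged 1.14 FPKM in ICH+PTE, 1.09 FPKM in ICH and 0.823 FPKM in sham and was not called. Adamts10, which binds fibrillin microfibrils, averaged 3.54 FPKM in ICH+PTE, 5.95 FPKM in ICH and 3.4 FPKM in sham. It was higher in ICH than in sham by 0.73 ± 0.12 (adjusted p = 0.000529) and lower in ICH+PTE than in ICH (-0.69 ± 0.12, adjusted p = 0.00111). These differences were 0.46 and -0.44 without the haemoglobin and mitochondrial genes and still called. Adamts6 and Adamts16 were called in no comparison.

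**Figure D4:**
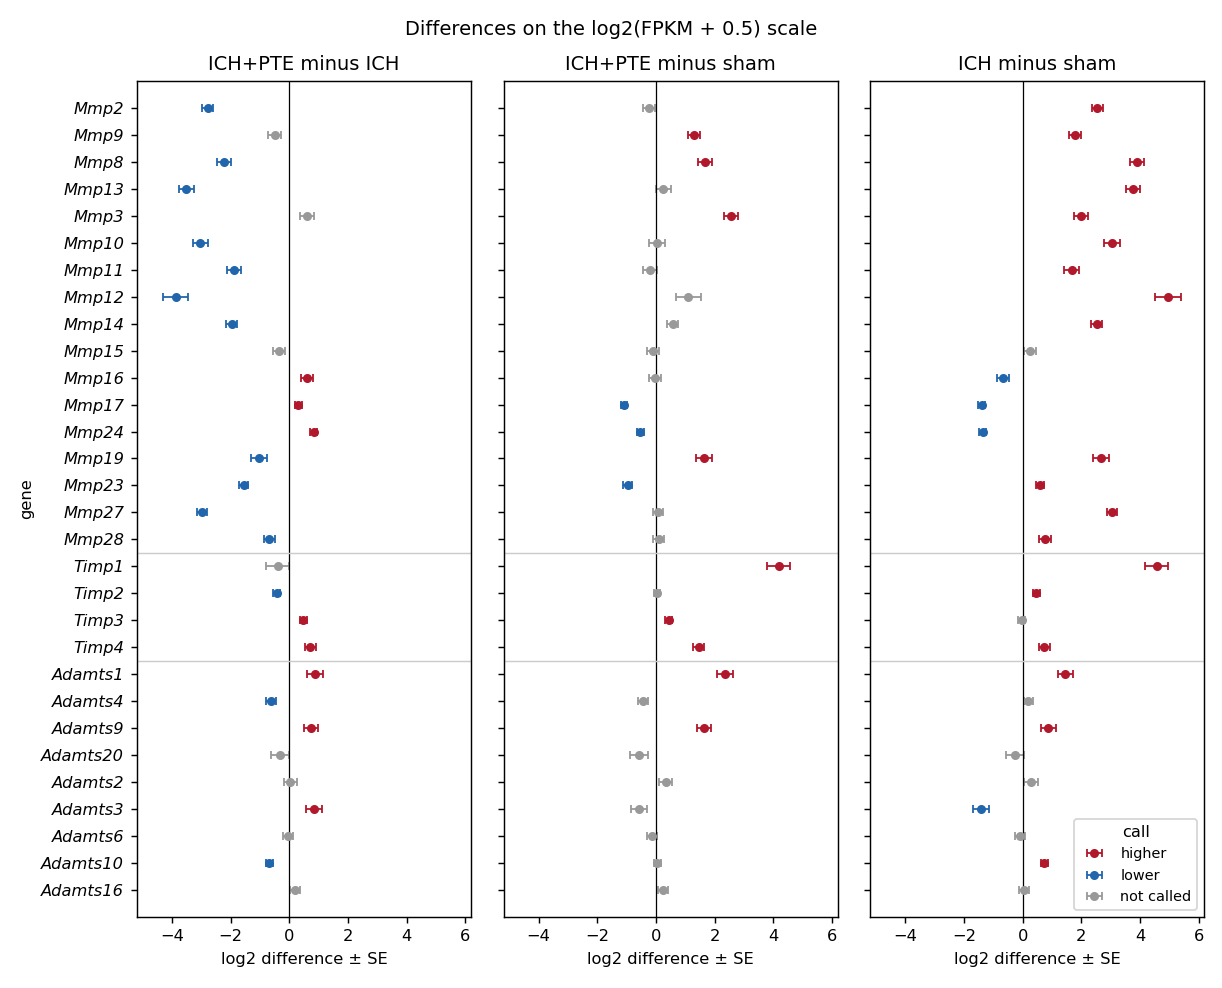
Log2 differences (points) with SE (bars) of the 30 tested genes for ICH+PTE minus ICH, ICH+PTE minus sham and ICH minus sham, coloured by the limma call. Most Mmp genes lie right of 0 for ICH minus sham and left of 0 for ICH+PTE minus ICH, and Timp4, Adamts1 and Adamts9 lie right of 0 in all 3 panels.

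Set side by side over the 3 comparisons, the 30 tested genes fell into a few patterns, which share their groups and are given as a description. The commonest, in 10 genes (Mmp2, Mmp10, Mmp11, Mmp12, Mmp13, Mmp14, Mmp27, Mmp28, Timp2 and Adamts10), was higher in ICH than in sham, lower in ICH+PTE than in ICH and not called between ICH+PTE and sham. The missing call does not show equal levels: every ICH+PTE library of Mmp14 lay above every sham library. Of these 10, Mmp10, Mmp11, Mmp12, Mmp13, Mmp27 and Mmp28 would have missed the filter without the ICH libraries. Mmp8 and Mmp19 had the same first calls and remained above sham in ICH+PTE, and Mmp23 lay below sham. Mmp3, Mmp9 and Timp1 were above sham in both haemorrhage groups with no call between these. Timp4, Adamts1 and Adamts9 were called higher in ICH than in sham and higher again in ICH+PTE. Mmp16, Mmp17, Mmp24 and Adamts3 were lower in ICH than in sham and higher in ICH+PTE than in ICH. Timp3 and Adamts4 were not called between ICH and sham, and Mmp15, Adamts2, Adamts6, Adamts16 and Adamts20 were called in none.

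The 16 genes below the filter were tested in a fit with no filter on low values, in which 29.1% of all 36346 genes were called for ICH minus sham, 25.3% for ICH+PTE minus ICH and 7.41% for ICH+PTE minus sham. For ICH minus sham 6 were higher (Adamts5, Adamts7, Adamts8, Adamts12, Adamts14 and Mmp25) and 2 lower (Adamts17 and Adamts18). For ICH+PTE minus ICH 2 were higher (Adamts17 and Adamts18) and 5 lower (Adamts7, Adamts8, Adamts12, Adamts14 and Mmp25), and for ICH+PTE minus sham only Adamts14 was called, at 0.73 (adjusted p = 0.0106). Adamts14, a procollagen protease, averaged 0.413 FPKM in ICH+PTE, 0.846 FPKM in ICH and 0.0494 FPKM in sham. Adamts8 averaged 0.248 FPKM in ICH+PTE, 0.968 FPKM in ICH and 0.29 FPKM in sham, and Adamts5, the main aggrecanase of mouse cartilage, 0.475 FPKM in ICH+PTE, 0.598 FPKM in ICH and 0.338 FPKM in sham. Adamts13, which cleaves von Willebrand factor, averaged 0.0917 FPKM in ICH+PTE, 0.0287 FPKM in ICH and 0.0393 FPKM in sham and was not called.

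Mmp7, the matrilysin that in the mouse activates intestinal defensins, was listed at 0.231, 0.0885 and 0.0591 FPKM in ICH+PTE, at 0, 0 and 0.114 FPKM in ICH, and at 0 in all sham libraries, with no call. Among 24 small-intestine markers the defensin gene Defa24 had 2.92, 0.833 and 2.53 FPKM in ICH+PTE and Defa30 had 1.44, 0.503 and 1.63 FPKM in ICH+PTE, and both were at 0 in all ICH and sham libraries. The summed small-intestine markers were 14.8 to 25.2 FPKM in ICH+PTE, 28.7 to 38.1 FPKM in ICH and 9.17 to 15.3 FPKM in sham, and 0, 9 and 12 of the 24 markers were at 0 in every library of these groups. The sums rest largely on Anpep and Apoa1, which did not follow the defensins. Anpep had 1.25 to 1.85 FPKM in ICH+PTE, 13.9 to 21.1 FPKM in ICH and 0.709 to 0.87 FPKM in sham, and Apoa1 had 3.92 to 8.55 FPKM in ICH+PTE, 6.75 to 8.78 FPKM in ICH and 5.61 to 11.4 FPKM in sham. The part of such RNA in the Mmp7 values was not tested.

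Genes that act with the family were taken from a list of 45 substrates, activators, inhibitors and partners, of which 40 were tested. Between ICH and sham 27 were higher and 3 lower (1 without sham library 2 or sham library 3, and 6 without the haemoglobin and mitochondrial genes), with a median difference of 0.95. Between ICH+PTE and ICH 0 were higher and 28 lower (2 and 22 without the haemoglobin and mitochondrial genes), with a median of -0.67. Between ICH+PTE and sham 17 were higher and 5 lower (3 without sham library 2 or sham library 3), with a median of 0.34; the medians and shares of all genes stand above. Plau, the urokinase that starts the plasmin cascade and so activates Mmp proenzymes, averaged 1.73 FPKM in ICH+PTE, 31.1 FPKM in ICH and 1.28 FPKM in sham. Its differences were 4.14 for ICH minus sham (adjusted p = 1.17e-06) and -3.85 for ICH+PTE minus ICH (adjusted p = 6.16e-06), and ICH+PTE minus sham was not called (0.29, adjusted p = 0.425). Plat, the tissue-type activator, averaged 9.02 FPKM in ICH+PTE, 11.4 FPKM in ICH and 5.23 FPKM in sham and was called in every comparison, at -0.34 for ICH+PTE minus ICH (adjusted p = 0.0451). Furin, which activates membrane-type proenzymes and Mmp11, averaged 3.61 FPKM in ICH+PTE, 7.35 FPKM in ICH and 3.19 FPKM in sham.

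Lcn2, which in man binds MMP9 and protects it, averaged 94.8 FPKM in ICH+PTE, 88.3 FPKM in ICH and 3.68 FPKM in sham, and like Mmp9 it was called against sham in ICH+PTE (4.81, adjusted p = 0.000183) and not against ICH (0.11, adjusted p = 0.845). The protease inhibitor A2m was also called in ICH+PTE against sham (2.59, adjusted p = 5.9e-05) and not against ICH (-0.08, adjusted p = 0.742). Among the substrates, brevican (Bcan), a proteoglycan that Adamts4 cleaves, averaged 25 FPKM in ICH+PTE, 43.3 FPKM in ICH and 54.4 FPKM in sham. It was lower in ICH+PTE than in ICH (-0.80, adjusted p = 0.000787) and than in sham (-1.12, adjusted p = 0.000622), and was not called for ICH minus sham (-0.32, adjusted p = 0.0599). Versican (Vcan) averaged 2.8 FPKM in ICH+PTE, 4.2 FPKM in ICH and 2.28 FPKM in sham, with a difference of 0.76 for ICH minus sham (adjusted p = 0.00117) and -0.53 for ICH+PTE minus ICH (adjusted p = 0.0112). Fibronectin (Fn1) averaged 16.2 FPKM in ICH+PTE, 61.2 FPKM in ICH and 5.46 FPKM in sham, and its difference of -1.93 for ICH+PTE minus ICH was the second largest fall on the list after Plau (adjusted p = 0.000127). The link protein Hapln1, which ties proteoglycans to hyaluronan, averaged 1.14 FPKM in ICH+PTE, 2.26 FPKM in ICH and 3.37 FPKM in sham and had the largest fall of the list for ICH+PTE minus sham (-1.24, adjusted p = 0.00135).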

How the data were processed

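RNA integrity numbers were over 7, mRNA was selected with oligo(dT), and a dUTP method kept the strand, per the labels' protocols. The submitters' processing notes name cutadapt (1.9), HISAT2 (2.0.4) and StringTie (1.3.4d); the genome build and any use of strand in counting are not stated. The authors deposited FPKM values for 36346 genes in 9 libraries. Of the genes whose identifier is also in GENCODE M21 (GRCm38), 91.7% have the same start and end there, among them 39 of the 46 family members. FPKM values are not counts. At most 20.5% of the low values of single-exon genes were whole multiples of any 1 step (within 0.02 of a step). The share for evenly spread values is 4%, but the step was chosen to give the highest share. Most values followed no common step, so whole reads were not recovered, the depth is unknown and no counting interval is given.

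limma 3.58.1 in R 4.3.3 was fitted to log2(FPKM + 0.5) with a mean for each group, a mean-variance trend and 6 residual degrees of freedom, and p-values were adjusted over 15376 genes. The procedure was tested on simulated data. Family members with a mean of at least 1 FPKM in a group, and all Timp genes, are described singly; the values of every library are given for those called with a difference of at least 1 in size. Further pathway genes are a fixed handful and those with the largest differences, not all of which are reported here; Furin, Tmem123, Dcun1d5, Dync2h1 and the synapsin genes were added after their values were seen. Members, lists and tests were chosen with earlier results of these data known. Promoter sequences are RefSeq's (GRCm38.p6). Alternatives were pseudocounts of 0.1 and 1, no filter, other scalings, a replicate block, fits of only the groups compared, library weights and leaving out each library.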

Additional observations from a re-analysis of the deposited data

How the results depend on the processing

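Under 19 alternatives, the total counts of called family members and pathway genes stayed within 1.5 times those reported, and so did the counts over all genes, except that the genes called for ICH+PTE minus sham ranged from 2089 to 3694 when 1 library was left out. Counts split by direction moved by more than that in some settings; those with 1 library left out stand beside the family and pathway counts. Without the libraries numbered 1, 12 family members were higher for ICH minus sham, against 19, 9 were lower for ICH+PTE minus ICH, against 14, and 3 pathway genes were lower for ICH+PTE minus sham, against 5. TPM gave 5 lower pathway genes for ICH minus sham, against 3, and the replicate block 1 higher for ICH+PTE minus ICH, against 0. Over all genes, ICH+PTE minus sham had 1019 higher and 1070 lower without sham library 3, 1063 lower without sham library 2 and 2989 lower in TPM, against 1736 higher and 1867 lower, and ICH+PTE minus ICH had 6161 higher and 3111 lower without the haemoglobin and mitochondrial genes, against 4065 and 4683. With 1 library left out, called family members numbered 18 to 23 for ICH minus sham, 15 to 22 for ICH+PTE minus ICH and 10 to 13 for ICH+PTE minus sham. Without an ICH library the genes that only ICH carried over the filter were not tested, which lowers the first counts. Without the 3 libraries numbered 1, a choice made after the choroid plexus markers were seen, the counts were 16, 15 and 11. In 33 of 90 comparisons of single family members a call or a sign changed under some alternative. The changes of call by library or scaling stand beside the genes. No sign changed where a difference was called. The cause of these changes was not tested. With a pseudocount of 0.1 the differences of genes with low values were larger, as the smaller constant makes them: Adamts9 was at 1.55 for ICH minus sham, against 0.88 with 0.5 and 0.58 with 1.

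Deviations of mice with the same number correlated at 0.00313 to 0.252, none of the 9 below 0 but only 3 above the 0.1 asked of every pair, against 10 of 18 below 0 for different numbers. Not every mouse was closest to its own number (sham library 1 and ICH+PTE library 2, 0.19). The labels do not say that a number is shared, so the mice were not treated as paired. The choroid plexus marker sum was highest in library 1 of each group. With a replicate block, 23, 23 and 14 family members were called in the order of comparisons above, against 23, 22 and 12. The block added Mmp3 for ICH+PTE minus ICH (0.59, adjusted p = 0.021 in limma), and Mmp12 (1.10, adjusted p = 0.0389) and Adamts3 (-0.58, adjusted p = 0.0406) for ICH+PTE minus sham.

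Signs turned only among differences that were not called. For ICH minus sham without the haemoglobin and mitochondrial genes, Adamts4 was at -0.0955, Adamts16 at -0.149 and Mmp15 at -0.0312. With 1 library left out, Adamts16 ranged from -0.0377 to 0.178, Adamts20 from -0.536 to 0.00809 and Timp3 from -0.141 to 0.0481. For ICH+PTE minus ICH, Adamts2 was at -0.0979 with library weights, at -0.0445 without the libraries numbered 1 and at -0.0744 to 0.184 with 1 library left out. Adamts6 was at 0.154 without the haemoglobin and mitochondrial genes, 0.0526 with weights, 0.128 without the libraries numbered 1 and -0.19 to 0.13 with 1 library left out. For ICH+PTE minus sham, TPM gave -0.0736 for Adamts10 and -0.0992 for Timp2, weights gave -0.0537 for Timp2, and leaving out the libraries numbered 1 gave 0.026 for Adamts6, 0.0922 for Mmp15 and -0.0901 for Timp2. The ranges with 1 library left out were -0.294 to 0.0262 for Adamts6, -0.0605 to 0.131 for Adamts10, -0.354 to 0.0349 for Mmp11, -0.246 to 0.163 for Mmp15, -0.244 to 0.0601 for Mmp16, -0.0362 to 0.132 for Mmp27, -0.0551 to 0.266 for Mmp28 and -0.0537 to 0.12 for Timp2.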
